A study of Homo sapiens with 6 samples.

Results

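Open chromatin lying near a gene start, but not on it, was examined in the human melanoma line A375 after recombinant HMGA1 was added. The regions were those of the authors' 3 comparison tables whose smallest distance to a gene start was over 1 kb and at most 10 kb and whose mean signal over the 6 libraries was at least 50. They numbered 14448 of the 226920 regions found in any table, or 6.37%. They are called proximal regions here. Without the limit on signal, 39299 regions lay at this distance, and 94166 regions at any distance had a mean signal of at least 50. The mean signal is a read count divided by the authors' size factors and averaged over the libraries, and it chose the members, so its values describe them and are not tested.

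The assay was ATAC-seq: the transposase Tn5 inserts sequencing adapters where DNA is open. Mock cells were untreated, and the other groups had received recombinant HMGA1 for 2 h or for 18 h. Each of the 3 groups had 2 libraries. All groups were of 1 cell line, the labels gave a single mock group with no time of its own, and the dose was not given in the sources used here. Cells had been frozen after treatment and thawed before nuclei were made. The tables hold no value of a single library, so neither the values by sample nor the depth of each library can be given, and the standard error (SE) of each fold change carries the spread between libraries. The labels call the libraries biological replicates without naming separate cultures, so the spread that p-values rest on may be technical.

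HMGA1 is an architectural protein of chromatin that holds on to runs of A and T in the minor groove through its AT hooks, and it can bend DNA and help other factors to assemble there. It is abundant in embryonic and cancer cells, and tumour cells can release it, after which it may act from outside the cell. Open chromatin a few kilobases from a gene start commonly holds enhancers and intronic elements bound by factors such as AP-1 and TEAD. In melanoma, AP-1 and TEAD elements are known for the undifferentiated, invasive state, whereas MITF and SOX10 elements are known for the pigmented state. A gene name below is the one the authors assigned by distance, and it does not show that the region acts on that gene.

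Proximal regions carried 8676 gene names, of which 8450 (97.4%) matched a name in RefSeq. Their median mean signal was 108, the quartiles were 68.6 and 211, and the median distance to the gene start was 4.50 kb. A single proximal region was found for 5163 gene names, and the most were the 11 of MTRNR2L1. Of the 11129 whose gene had a RefSeq strand, 59.4% lay downstream of the start. The span of the named gene held 56.5% of the regions, the span of another coding gene only held 3.71%, and 39.8% lay outside coding gene spans. The authors' start was not always that of RefSeq: of 7743 regions whose gene had 1 RefSeq start, 5167 had the authors' start within 100 bases of it and 725 had it over 1 kb away. A RefSeq gene start lay within 674 proximal regions (4.67%).

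At the lower distance limit, UBE2L6 and PBK lay 1 base beyond 1 kb and were kept, and CEP295 and SETD1B at 1000 bases were not. At the upper limit, SUOX at 10000 and CHCHD8 at 9998 bases were kept, and GOLGA5 at 10001 and LASP1 at 10003 were not. At the signal limit, PPP1R15B and WBP2 had mean signals of 50.0002 and 50.0033 in the authors' deposited table and were kept, whereas IWS1 (49.999) and EGR3 (49.989) were not. At the top of the range, a region named for NGB had a mean signal of 70594 and a log2 fold change of 0.18 ± 0.20 (SE) at 2 h in the authors' deposited table.

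Sequence can be shown for the called proximal regions that hold a RefSeq gene start, because RefSeq's promoter table covers the bases just before such a start. Called regions are those with an adjusted p of the authors below 0.05. Such regions were few: 3 of those called at 2 h against mock and 9 of those called at 18 h against 2 h. For 6 of them the bases before the start that fall inside the region are printed 5′ to 3′ on the strand of the RefSeq gene (GRCh38.p14). They were chosen after their values were seen, to set a GC-rich promoter that was lower at 2 h beside more AT-rich starts. Capitals mark TGACTCA, the AP-1 site, or GGAATG, a TEAD site, in either orientation. CACGTG, the E-box, and a run of AAAAAA were searched on both strands too. None of these motifs overlapped another.
LOC105369558 (KIRREL3 region, chr11:126992181-126992430, + strand): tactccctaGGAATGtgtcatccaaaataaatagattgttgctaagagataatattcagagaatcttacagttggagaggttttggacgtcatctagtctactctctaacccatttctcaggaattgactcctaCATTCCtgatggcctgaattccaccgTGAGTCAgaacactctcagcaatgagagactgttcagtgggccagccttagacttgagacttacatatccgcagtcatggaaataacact
LOC124903287 (RP11-298I3.5 region, chr14:22977636-22977826, + strand): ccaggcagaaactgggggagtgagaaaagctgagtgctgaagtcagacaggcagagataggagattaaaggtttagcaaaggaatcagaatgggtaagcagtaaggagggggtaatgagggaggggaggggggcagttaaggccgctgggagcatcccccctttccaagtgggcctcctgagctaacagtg
LOC107985670 (ZCCHC5 region, chrX:78653229-78653458, + strand): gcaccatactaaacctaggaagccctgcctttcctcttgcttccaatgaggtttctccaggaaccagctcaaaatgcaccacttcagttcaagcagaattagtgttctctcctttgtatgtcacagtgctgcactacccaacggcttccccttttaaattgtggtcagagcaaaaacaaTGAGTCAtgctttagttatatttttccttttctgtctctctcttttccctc
VEPH1 (chr3:157499657-157499830, - strand): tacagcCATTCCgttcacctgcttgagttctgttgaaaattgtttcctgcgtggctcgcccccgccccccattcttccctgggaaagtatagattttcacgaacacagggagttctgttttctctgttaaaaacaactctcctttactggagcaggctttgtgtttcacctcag
PDE4D (chr5:60496287-60496491, - strand): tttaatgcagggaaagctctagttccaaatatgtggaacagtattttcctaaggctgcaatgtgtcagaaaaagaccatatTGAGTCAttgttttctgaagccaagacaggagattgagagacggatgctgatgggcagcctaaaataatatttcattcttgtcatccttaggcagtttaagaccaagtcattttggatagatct
TOB1 (chr17:50866355-50866604, - strand): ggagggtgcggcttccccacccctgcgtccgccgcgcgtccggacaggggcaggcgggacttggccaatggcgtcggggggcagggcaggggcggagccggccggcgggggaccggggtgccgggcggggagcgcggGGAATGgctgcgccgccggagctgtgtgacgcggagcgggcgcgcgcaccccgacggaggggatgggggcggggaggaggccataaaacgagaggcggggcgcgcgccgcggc

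The sequence before the uncharacterized start LOC105369558, in a region named for the adhesion protein gene KIRREL3, was 58.0% A or T and held GGAATG on both strands and 1 TGACTCA. Its region had a log2 fold change of 0.39 ± 0.12 (SE) at 2 h, which was not called (adjusted p = 0.0549), and one of -0.48 ± 0.12 at 18 h against 2 h, which was (in the authors' deposited table, adjusted p = 0.00262, DESeq2). The sequence before LOC124903287 was 45.5% A or T and held none of the motifs, and its region rose at 2 h (0.61 ± 0.14 in the authors' deposited table, adjusted p = 0.00196). That before LOC107985670, in a region named for ZCCHC5, was 56.5% A or T with 1 TGACTCA, and its region rose by as much (0.61 ± 0.16 in the authors' deposited table, adjusted p = 0.0156). The VEPH1 region, at a start of its own gene, fell from 2 h to 18 h (-0.70 ± 0.14 in the authors' deposited table, adjusted p = 6.43e-05) and held 1 GGAATG.

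The PDE4D region differed the other way. It lies at a start of the gene for a cyclic AMP phosphodiesterase, its printed bases were 61.5% A or T with 1 TGACTCA, and it was higher at 18 h than at 2 h (0.44 ± 0.11 in the authors' deposited table, adjusted p = 0.00698). The TOB1 region holds the start of an antiproliferative gene, its printed bases were 19.6% A or T with 1 GGAATG, and it fell at 2 h (-0.31 ± 0.08 in the authors' deposited table, adjusted p = 0.0219). At 2 h the median was -0.11 over the tested proximal regions that hold a RefSeq gene start and -0.06 over all regions tested. Among all 35116 RefSeq windows of 250 bases, 4.20% held TGACTCA, 11.9% held GGAATG, 6.34% held CACGTG and 16.5% held AAAAAA, with a median of 42% A or T. Among the 769 windows whose start lies inside a proximal region the shares were 7.67%, 12.1%, 9.49% and 11.4%, with a median of 36% A or T. For the shorter lengths the shares with TGACTCA were 3.95% at 230 bases, 3.60% at 205, 3.46% at 191 and 3.21% at 174. At 174 bases, the length printed for VEPH1, 8.25% held GGAATG. A match is a description of the letters and not a site shown to be bound.

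Among the proximal regions called at 2 h, more were higher than lower, as among all regions tested. Of the 12993 tested, 71 (0.546%) were higher and 40 (0.308%) lower than mock, beside 0.856% and 0.421% of all 86137 regions tested (1.28% in either direction). The regions that rose belonged to 67 gene names with a median fold of 1.67, and those that fell to 40 with a median fold of 1.45. At least 2-fold differences were found in 14 that rose and in 2 that fell, FOSB and RIN2. The called split went the other way at a mean signal of 500 and more (10 higher, 17 lower) and at 1 to 2 kb (2 and 6). Of the 1065 proximal regions with an unadjusted DESeq2 p under 0.05, 430 were higher, so most were lower. The median log2 fold change was -0.05 over proximal regions and -0.06 over all regions tested, so the typical region sat slightly below mock. When each value was taken relative to the median region, the split moved from 64.0% higher to 87.1%, and within bins of equal mean signal to 87.8%.

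The share of regions called grew with distance from the gene start. At 2 h it was 0.103% for regions on a start, 0.312% within 1 kb, 0.854% at 1 to 10 kb, 1.44% at 10 to 100 kb and 1.86% beyond. The same order held among proximal regions alone: 0.341% were called at 1 to 2 kb, 0.639% at 2 to 5 kb and 1.24% at 5 to 10 kb. Regions on starts had the higher signal and so the smaller errors, with a median mean signal of 422 against 121 for the proximal regions tested. Among proximal regions the called share rose with signal instead, from 0.364% at 50 to 100 to 2.82% at 500 and more. Upstream and downstream regions were called at like rates, 0.897% and 0.883%. These shares are set side by side without a test.

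**Figure D1:**
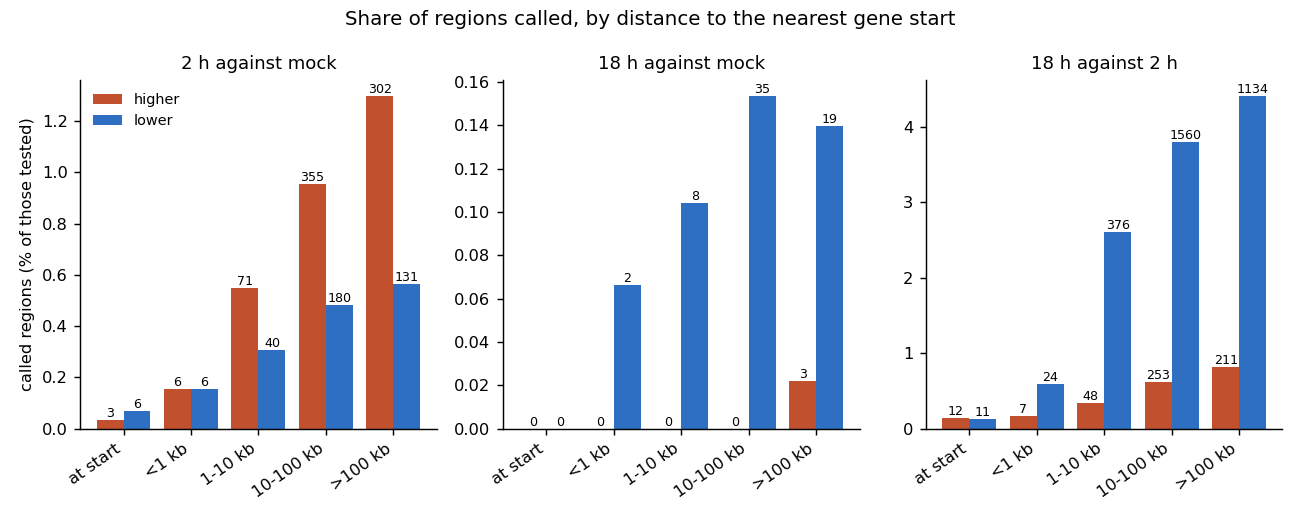
Share of tested regions called higher (orange) or lower (blue) in each comparison, by distance to the nearest gene start, with the number called above each bar; the vertical axes differ between panels. At 1 to 10 kb, 71 were higher and 40 lower at 2 h, 8 were lower at 18 h against mock, and 48 were higher and 376 lower at 18 h against 2 h.

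The start regions of these genes that were tested were not called at 2 h. With 0.103% of all regions on a start called, this does not set these genes apart. Of the 67 genes with a proximal region that rose, 33 had a tested region on the start, and 0 of those were called by DESeq2, with log2 fold changes from -0.35 to 0.48 in the authors' deposited table and 5 at an unadjusted p under 0.05. The 40 genes with a region that fell had 18 tested start regions, of which 0 were called and 6 had an unadjusted p under 0.05. Another region called in the same direction lay within 10 kb for 7 of the 71 that rose and for 1 of the 40 that fell. Of all regions tested, 0.856% were higher and 0.421% lower. The number of tested neighbours was not counted, so these values do not show whether called regions cluster.

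THBS1, which encodes thrombospondin 1, a secreted matrix protein that activates TGF-beta, had the most proximal regions that rose at 2 h. All 5 of its proximal regions lay downstream of the start within the gene, and 4 rose. Levels are given below as estimates for mock, 2 h and 18 h in that order, in normalized reads, computed from the mean signal and both fold changes. They carry no error of their own. At 8.61 kb (chr15:39589706-39590207) the levels were 62.4, 167 and 81.0, and the log2 fold change at 2 h was 1.42 ± 0.25 (SE; in the authors' deposited table, adjusted p = 2.89e-05). At 6.92 kb they were 96.0, 233 and 107, with 1.28 ± 0.30 at 2 h in the authors' deposited table (adjusted p = 0.00474). The regions at 4.21 and 5.37 kb rose by 1.10 ± 0.30 and 0.87 ± 0.20 in the authors' deposited table. The one nearest the start, at 2.65 kb, had a value of 0.70 ± 0.21 that was not called (adjusted p = 0.058). By 18 h the 5 values against mock lay between -0.03 and 0.38 in the authors' deposited table. The 4 that were tested there had DESeq2 adjusted p from 0.830 to 0.997, and the one at 4.21 kb was under the signal limit.

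CCND1, the gene of cyclin D1, which drives entry into the cell cycle and is an output of MAPK signalling, had its least changed proximal regions nearest the start. The 2 strongest of the 9, at 1.78 and 1.94 kb, had levels of 506, 489 and 518 and of 322, 310 and 327, with log2 fold changes of -0.05 each at 2 h in the authors' deposited table. The other 7, at 3.90 to 9.63 kb, were weaker and had values at 2 h between 0.50 and 1.16 in the authors' deposited table. Of the 8 tested at 2 h, the one at 6.55 kb (chr11:69647752-69648253) was called. Its levels were 60.4, 135 and 60.9, a difference at 2 h of 1.16 ± 0.26 in the authors' deposited table (adjusted p = 0.00296). Between 18 h and 2 h, 4 of the 9 fell.

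ACTG1, which encodes cytoplasmic gamma-actin, had 6 proximal regions, and 2 rose at 2 h, both downstream of the start. At 5.19 kb the levels were 108, 211 and 133, and the log2 fold change was 0.97 ± 0.20 (in the authors' deposited table, adjusted p = 0.000784). At 6.17 kb it was 1.38 ± 0.32 in the authors' deposited table (adjusted p = 0.00474). These 6 regions were all higher at 2 h than in mock in the sign of the fold change, from 0.28 to 1.38 in the authors' deposited table.

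**Figure D2:**
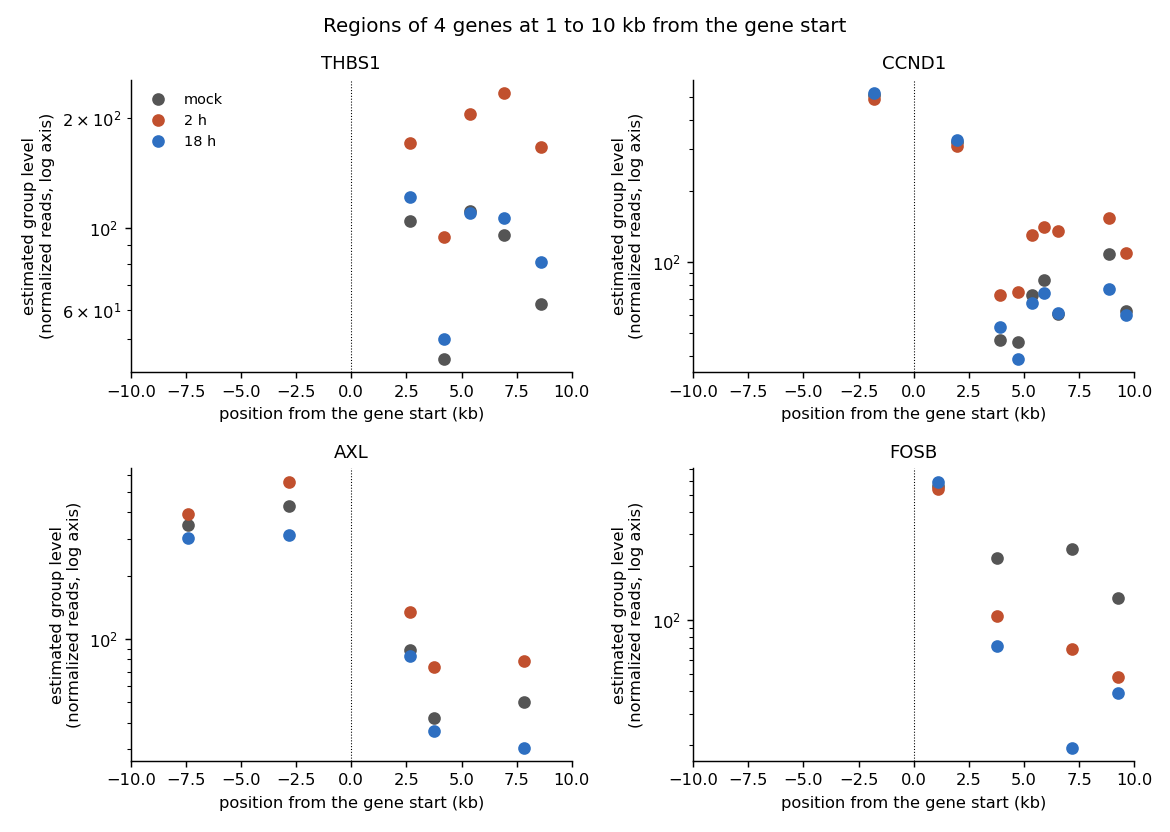
Estimated group levels (normalized reads, log axis, without error bars because the tables give none) of every proximal region of THBS1, CCND1, AXL and FOSB against its position from the gene start in kb, with positive positions at higher coordinates. The 2 h points of THBS1 lie above mock in all 5 regions, those of CCND1 do so beyond 1.94 kb, and those of FOSB lie below mock beyond 1.08 kb.

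Other proximal regions that rose at 2 h are given from those with at least the median signal of the tested ones (121), 1 per gene. Weaker regions of CAPN2, ANKUB1, SNAPC1, GDA and DLG1 rose by 1.08 to 1.25 in the authors' deposited table and are named after their values were seen. A region upstream of FLG, the gene of the epidermal protein filaggrin, had levels of 194, 446 and 164, a log2 fold change of 1.20 ± 0.15 at 2 h in the authors' deposited table (adjusted p = 4.93e-11). A region within TSEN15, a subunit of the tRNA splicing endonuclease, went from 183 to 381 and then 136, with 1.06 ± 0.16 in the authors' deposited table (adjusted p = 8.92e-08). A region of AADACL4 was the best measured of these: 440, 751 and 349, with 0.77 ± 0.11 in the authors' deposited table (adjusted p = 2.97e-08). CDV3, the urate transporter gene SLC2A9, TCP11L1, FXYD5, PHLDB1 and the antigen-presenting gene CD1D had called regions with values of 0.77 to 0.91 in the authors' deposited table. In each of these the estimated 18 h level was below mock, apart from FXYD5 (164, 283 and 195).

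Among genes of matrix and adhesion, 6 of the 75 tested regions of the matrix list rose at 2 h and 0 fell. Of these 4 were THBS1 regions, and the others were of AGRN, the proteoglycan agrin (levels 133, 234 and 107), and COL13A1, a transmembrane collagen (75.0, 135 and 68.9). The list's median log2 fold change was -0.01, beside -0.06 over all regions tested, of which 0.856% were higher. In the list of integrins and focal adhesion, 2 of 54 rose: TNS3, a tensin that links integrins to actin, by 0.93 ± 0.27, and LIMS1, the adhesion adaptor PINCH1, by 0.42 ± 0.12 in the authors' deposited table. Both were near the threshold (adjusted p = 0.0436 and 0.0453), as was COL13A1 of the matrix list (DESeq2 adjusted p = 0.0446).

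Over all regions tested at 2 h, 0.856% were higher and 1.28% were called in either direction. The small counts of the lists below were not tested against those shares. For signalling outputs, 2 of 59 regions of the MAPK list rose, those of CCND1 and of DUSP5, a nuclear phosphatase that switches ERK off. The DUSP5 region at 9.89 kb had levels of 233, 348 and 222 (0.58 ± 0.15 in the authors' deposited table, adjusted p = 0.0219). In the TGF-beta list DESeq2 called 0 of 57, with 2 at an unadjusted p under 0.05. In the YAP and TEAD list it called 0 of 54, with 9 at an unadjusted p under 0.05, and in the NF-kB list 0 of 22, with 4. The list of amino acid transporters gave 1 of 29: SLC7A5, the light chain of the large neutral amino acid transporter LAT1. Its region 1.04 kb upstream of the start (chr16:87870524-87871025) was also one of the strongest that rose, at 626, 940 and 469 (0.59 ± 0.10 in the authors' deposited table, adjusted p = 2.04e-05).

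Proximal regions that fell at 2 h were led by FOSB, an AP-1 subunit of the immediate early class. Its region at 9.26 kb, past the end of the gene (chr19:45477256-45477757), had levels of 132, 47.8 and 39.4 and a log2 fold change of -1.47 ± 0.30 at 2 h (in the authors' deposited table, adjusted p = 0.000622). It was the only called one of 47 tested regions in the AP-1 and immediate early list, whose median was -0.17. Over all regions tested, 0.421% were lower. Among the regions with at least the median signal of those tested (121), the lowest values were those of ARRB1, the adaptor beta-arrestin 1 (315, 177 and 242), and SULF2, an extracellular heparan sulfatase (313, 184 and 224). Their log2 fold changes were -0.83 ± 0.16 and -0.77 ± 0.17 in the authors' deposited table. The sulfate transporter gene SLC26A2 had the best measured of them, a region 5.44 kb upstream at 694, 415 and 601 (-0.74 ± 0.11 in the authors' deposited table, adjusted p = 1.12e-07).

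The rest of the named regions that fell were of ZNF436, HIVEP3, CNBD2, AGR2, C7orf73, TMEM78, MGAT4B, TRIL and DDR1, a collagen receptor kinase, with values from -0.73 to -0.60 in the authors' deposited table. Relative to the median region 18 regions were lower, in place of 40, and AGR2, C7orf73 and HIVEP3 were not among them. For each of these named regions except FOSB the estimated 18 h level lay between the 2 h and the mock levels.

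**Figure D3:**
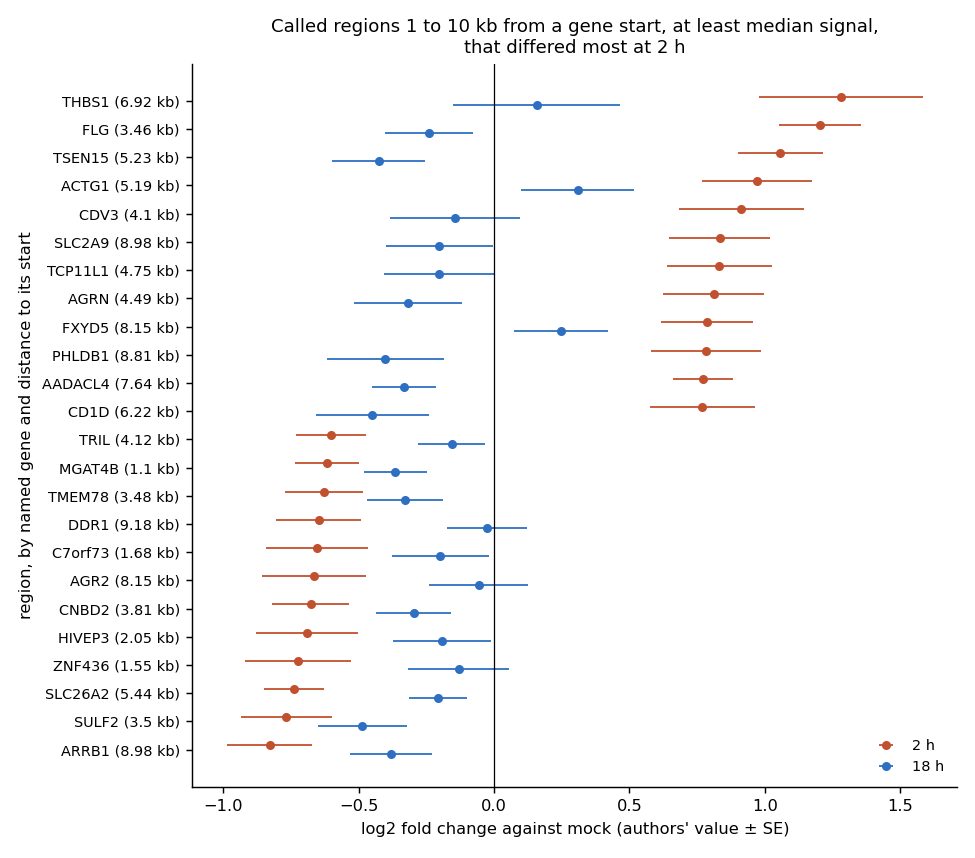
The authors' log2 fold changes against mock (± SE) at 2 h (orange) and 18 h (blue) for the 12 called proximal regions furthest up and the 12 furthest down at 2 h among those with at least the median signal (121), 1 per gene. The regions were chosen on the 2 h values; at 18 h the THBS1 region at 6.92 kb stood at 0.16 and the ARRB1 region at -0.38.

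At 18 h few proximal regions differed from mock. Of the 7689 tested, 0 were higher and 8 (0.104%) lower, beside 0.00542% and 0.116% of all 55341 regions tested (0.121% in either direction). Proximal regions with an unadjusted DESeq2 p under 0.05 numbered 664, of which 41 were higher. The mean signal limit of the authors' adjustment was 101 here, against 56.2 at 2 h and 41.7 at 18 h against 2 h. Weaker proximal regions had an unadjusted p but no usable adjusted p, and are counted as not tested. The median log2 fold change was -0.07 over proximal regions and -0.07 over all tested, and relative to the median region 0 of the 8 calls were made.

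The 8 regions that fell were of different kinds of gene. FOSB had the largest fall, at 3.79 kb within the gene: levels of 220, 106 and 71.6, and a log2 fold change of -1.62 ± 0.39 (in the authors' deposited table, adjusted p = 0.0356). A region of LGR6, a receptor for R-spondins, stood at 274, 224 and 171 (-0.69 ± 0.16 in the authors' deposited table). A region within HSPG2, the basement membrane proteoglycan perlecan, stood at 381, 510 and 254, and one near COL1A1, fibrillar collagen, at 405, 409 and 270. Both had values of -0.59 in the authors' deposited table, with adjusted p of 0.0264 and 0.0172. The others were of the actin-bundling gene MISP, of S100A10, which partners annexin A2, of the G-protein subunit gene GNG4, and of MTRNR2L1, with values of -0.50 to -0.36 in the authors' deposited table.

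The MTRNR2L1 value is uncertain, because that locus is a nuclear copy of mitochondrial ribosomal DNA and reads from either can be counted at the other. Its called region, 1.46 kb from the start, had levels of 3634, 3316 and 2829 and a value at 18 h of -0.36 ± 0.07 in the authors' deposited table (adjusted p = 0.00155). The 2 mitochondrial regions in the tables had a median of -0.36 at 18 h and -0.14 at 2 h, beside -0.36 and -0.13 for the MTRNR2L1 region, and were not called. Whether its reads came from the mitochondrial genome was not tested.

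The 4 FOSB regions differed with distance. At 1.08 kb, FOSB had levels of 562, 537 and 591 with no call. Beyond it the levels at 7.17 kb were 249, 68.5 and 19.4, a log2 fold change of -3.68 ± 0.95 at 18 h (in the authors' deposited table, adjusted p = 0.064), so it was not called. The region at 9.26 kb had -1.75 ± 0.31 in the authors' deposited table and a mean signal under the 18 h limit. It had no usable adjusted p and could not be called. JUN, the partner of FOS proteins in AP-1, had regions at 4.20 and 4.87 kb past its start with levels of 193, 120 and 32.2 and of 77.1, 56.0 and 17.5. Their values at 18 h against mock were -2.58 ± 0.72 and -2.14 ± 0.40 in the authors' deposited table. The first was not called (adjusted p = 0.101). The second was under the limit too, so its missing call, like that of FOSB at 9.26 kb, does not show a small difference. It fell between 2 h and 18 h (-1.67 ± 0.40 in the authors' deposited table, adjusted p = 0.00249). The SE of 0.72 at JUN and of 0.95 at FOSB stand beside a median SE of 0.17 over the proximal regions tested at 18 h against mock.

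Between 2 h and 18 h, the proximal regions that were called were mostly lower at 18 h, while the median log2 fold change over all of them was 0.003. Of the 14448, all of which were tested, 376 (2.60%) were lower at 18 h and 48 (0.332%) higher, beside 2.98% and 0.498% of all 108134 regions tested (3.48% in either direction). The median folds were 1.64 and 1.54. At least 2-fold differences were found for 74 that were lower and 5 that were higher. By distance the called share was 0.261% on a start, 0.755% within 1 kb, 2.93% at 1 to 10 kb, 4.42% at 10 to 100 kb and 5.23% beyond. Among proximal regions it went from 1.85% at 1 to 2 kb to 3.49% at 5 to 10 kb. Another region that fell lay within 10 kb for 63 of the 376, and the number of tested neighbours was not counted. This comparison shares the 2 h libraries with 2 h against mock and the 18 h libraries with 18 h against mock, so a library that was high at 2 h enters both, and agreement between them is not independent evidence.

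Among regions with at least the median signal of those tested (108), the 12 that fell most had estimated 2 h levels above mock. Of these TSEN15 (-1.48 ± 0.16) and FLG (-1.45 ± 0.15) led in the authors' deposited table, with adjusted p of 7.90e-16 and 1.05e-16. A region upstream of RGMB, a co-receptor for bone morphogenetic proteins, stood at 90.9, 176 and 68.4 (-1.37 ± 0.23 in the authors' deposited table). One upstream of DLG1, a scaffold of cell polarity, stood at 88.5, 186 and 77.9 (-1.26 ± 0.23 in the authors' deposited table). Regions of ENTPD4, CD1D, ARHGAP31, PHLDB1, PLEKHG4B, AGRN, THBS1 and UROC1 followed, from -1.25 to -1.12 in the authors' deposited table. Weaker regions fell further. RIC3, EIF3F, EXOSC2 and CAPN2, named after their values were seen, had values from -1.73 to -1.54 in the authors' deposited table, and JUN, with a 2 h level below mock, is described above. A region of TMEM45A, also picked after its value was seen, had the largest fall: 32.0, 109 and 20.9, or -2.39 ± 0.35 in the authors' deposited table (adjusted p = 1.05e-08).

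The named regions that were higher at 18 h than at 2 h had estimated 2 h levels below mock. LARP1, which binds messenger RNAs of the translation machinery, had levels of 116, 76.8 and 147 (0.94 ± 0.23 in the authors' deposited table, adjusted p = 0.00323). CDKAL1, a tRNA-modifying enzyme, had 179, 127 and 225, and the best measured, upstream of C12orf76, had 390, 319 and 492 (0.62 ± 0.13 in the authors' deposited table, adjusted p = 0.000204). GALK1, galactokinase, had 2 called of its 4 proximal regions, both upstream and neither called at 2 h: 64.3, 51.1 and 117 at 6.26 kb and 144, 139 and 234 at 9.19 kb. The values were 1.20 ± 0.29 and 0.75 ± 0.20 at 18 h against 2 h in the authors' deposited table. The meiotic gene MSH4 also had 2 called regions, at 1.19 ± 0.34 and 1.51 ± 0.36 in the authors' deposited table, both with mean signals under 56. ZNF670 and UBALD2 were the other names past 2-fold, and like MSH4 they were named after their values were seen.

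**Figure D4:**
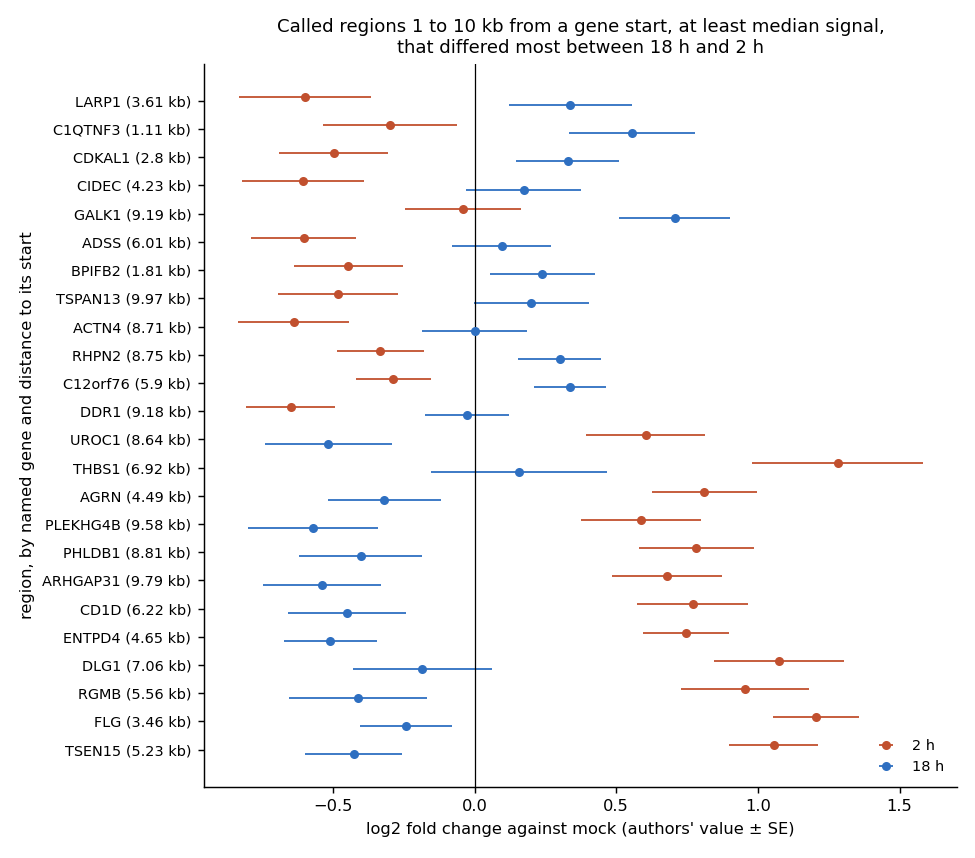
The authors' log2 fold changes against mock (± SE) at 2 h (orange) and 18 h (blue) for the 12 called proximal regions furthest up and the 12 furthest down at 18 h against 2 h among those with at least the median signal (108), 1 per gene. The regions were chosen on the difference between both colours; TSEN15 went from 1.06 to -0.43 and LARP1 from -0.60 to 0.34.

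Over all regions tested, 2.98% were lower at 18 h than at 2 h and 0.498% higher. In the matrix list, 10 of 82 regions were lower at 18 h than at 2 h and 1 was higher, with a median of -0.12 beside 0.01 over all tested. The lower ones were the 4 of THBS1 and those of AGRN, HSPG2, COL13A1, COL5A1, LAMA5 and COL1A1. HSPG2 fell by 1.01 ± 0.14 in the authors' deposited table (adjusted p = 1.94e-10). The higher one was of SPARC, a matrix glycoprotein, at 1168, 1016 and 1244 (0.29 ± 0.08 in the authors' deposited table, adjusted p = 0.00937). COL5A1, LAMA5 and SPARC were named after their values were seen. Among integrins and focal adhesion, 4 of 65 were lower, in TNS3, LIMS1 and at 2 regions of the integrin gene ITGA3, and 1 was higher, in ACTN4 (0.64 ± 0.19 in the authors' deposited table).

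In the YAP and TEAD list, 7 of 61 were lower and 0 higher, beside 2.98% and 0.498% of all regions tested. The list's median was -0.14. AXL, a receptor kinase of the invasive melanoma state, had 2 of the lower ones among its 5 proximal regions. These 2 were the only calls among 42 regions in the list of undifferentiated or invasive melanoma genes. That list, with 13 genes that had a proximal region, gave 0 DESeq2 calls against mock among 39 tested at 2 h and 23 at 18 h. An unadjusted p under 0.05 was found for 3 and 3 of them. The AXL region 2.83 kb before the authors' start (chr19:41223424-41223925) lies within the RefSeq span of AXL. It stood at 430, 560 and 314, a log2 fold change of -0.84 ± 0.13 in the authors' deposited table (adjusted p = 8.68e-08). CYR61, the matricellular gene CCN1, stood at 147, 212 and 99.7 (-1.09 ± 0.21 in the authors' deposited table, adjusted p = 6.18e-05). ANKRD1, a standard YAP reporter gene, stood at 563, 706 and 445 (-0.66 ± 0.11 in the authors' deposited table, adjusted p = 3.42e-07). The others were of MYOF, FJX1 and DOCK5, named after their values were seen. ANKRD1 was 1 of 2 genes, with GDA, whose start region fell as well, out of 178 tested start regions of genes with a proximal region that fell. Over all regions on a start, 0.125% were lower. The ANKRD1 start had a value of -0.86 ± 0.15 in the authors' deposited table. It had been called higher at 2 h against mock (0.72 ± 0.15, DESeq2 adjusted p = 0.000725). At 18 h against mock it stood at -0.14 ± 0.16 and was not called.

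The next counts stand beside 2.98% of all regions tested that were lower at 18 h than at 2 h. They are small and were not tested against that share. Of the MAPK list 6 of 61 were lower, 4 at CCND1 and 2 at DUSP5, and of the TGF-beta list 3 of 59. The latter were those of SMAD3, SMAD7 and PMEPA1, the signal transducer, an inhibitor and a feedback regulator of that pathway. SMAD3 stood at 144, 172 and 95.5. Amino acid transporters gave 3 of 33: SLC7A5, which fell by 1.004 ± 0.11 (adjusted p = 7.92e-17), SLC38A1 and SLC7A1 in the authors' deposited table. Immediate early genes gave 3 of 51: JUN, ATF3 (248, 275 and 190) and MAFK (602, 606 and 474). The chemokine gene CCL2 was the single one of 25 in the NF-kB list, at 197, 270 and 184.

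Genes of the pigmented melanocyte lineage gave 0 DESeq2 calls at 2 h, at 18 h and at 18 h against 2 h, among 25, 16 and 26 tested regions. Over all regions tested 1.28%, 0.121% and 3.48% were called, so 0 calls does not set apart lists of this size. Melanocyte regions with an unadjusted p under 0.05 numbered 3, 0 and 2. The list's medians were -0.07, -0.07 and -0.05 beside -0.06, -0.07 and 0.01 over all tested. Of the 21 genes, 14 had a proximal region, with mean signals of 51.7 to 802. MITF, SOX10, PMEL and DCT had none at this distance and signal, which says nothing of their expression. The heat shock and oxidative stress list gave 0 DESeq2 calls in each comparison, with 3, 2 and 5 at an unadjusted p under 0.05. The list of HMGA1 receptor, uptake and high mobility group genes gave 0 as well, with 3, 2 and 1. HMGA1 itself had 2 regions, at 1.10 and 7.49 kb, with levels of 67.1, 70.8 and 72.3 and of 916, 842 and 866. Neither was called, with values of 0.08 ± 0.28 and -0.12 ± 0.09 at 2 h in the authors' deposited table.

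Markers of other cell types were counted in the same way. Over all regions tested, 2.98% were lower at 18 h than at 2 h and 0.856% were higher at 2 h. Of the keratinocyte list, 4 of 14 regions were lower at 18 h than at 2 h, of FLG, of KRT5 (2) and of KRT14, and 1 of 13 was higher at 2 h, that of FLG. Of the fibroblast list, 3 of 11 were lower at 18 h than at 2 h, of COL1A1 and THY1 (2). The fibroblast regions went both ways, from -0.64 to 0.66 on the log2 scale with a median of 0.03, beside 0.01 over all tested. The keratinocyte regions ran from -1.45 to 0.41 with a median of -0.37. The lists' mean signals were 54.6 to 432 and 58.3 to 626, and KRT1, KRT10, KRT17 and DSG1 had no proximal region. Endothelial and immune lists gave 0 DESeq2 calls among 5 regions each at 18 h against 2 h, with 0 at an unadjusted p under 0.05. Whether DNA of other cells took part in these values was not tested.

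**Figure D5:**
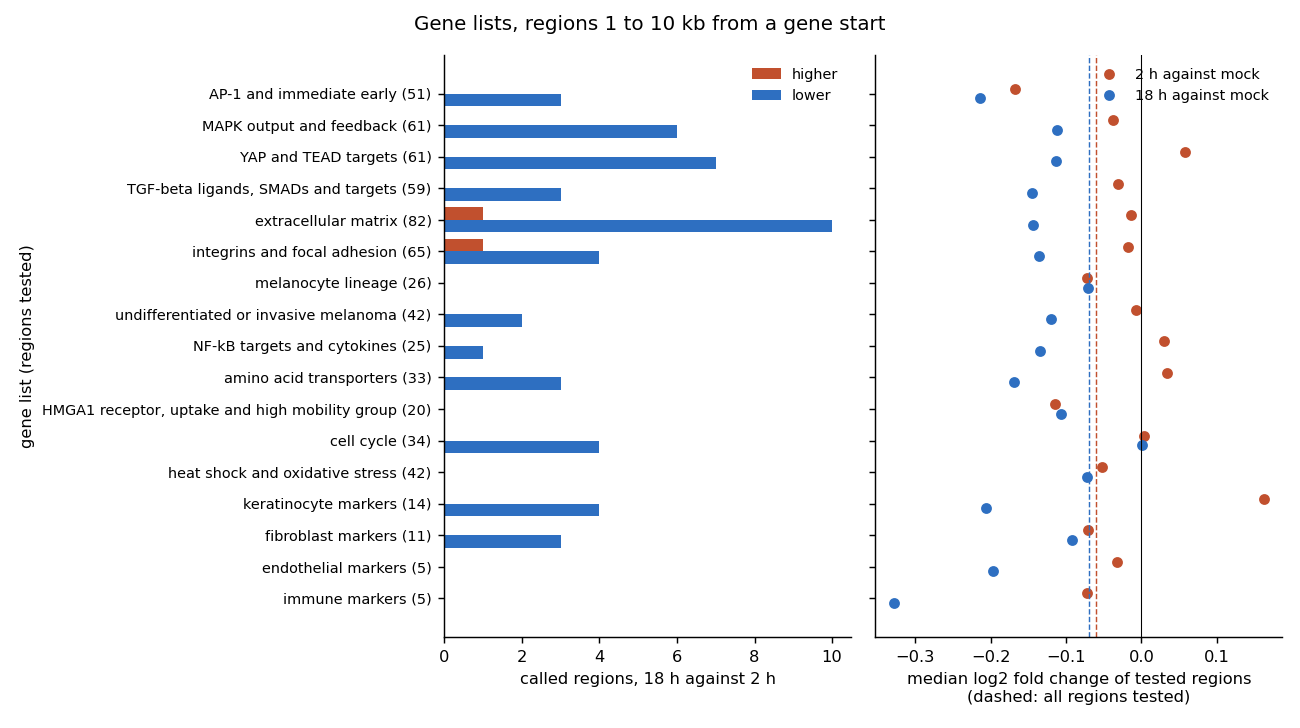
Left, called proximal regions at 18 h against 2 h in each gene list, with the number tested in brackets; right, the median log2 fold change of each list's tested regions against mock at 2 h (orange) and 18 h (blue), with dashed lines for all regions tested (-0.06 and -0.07). The matrix list had 10 lower and 1 higher, the keratinocyte list stood furthest right at 2 h (0.16), and the immune list, with 2 tested regions at 18 h, furthest left.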

How the data were processed

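The submitters' processing notes name hg38 as the build, bcl2fastq 2.17 as a tool and DESeq2 as the authors' test. No aligner, peak caller or Tn5 offset correction was named there, so these are not given in the sources used here. Each deposited table gave, per region, a mean normalized signal over the 6 libraries, a log2 fold change with its SE, the Wald statistic as a score, and a p-value with its adjusted p, all computed by the authors. Since 0 columns hold the values of 1 library, the planned count test was not run, and the authors' DESeq2 results were used as deposited. Every region had the same mean signal in each comparison, so the 3 comparisons come from 1 fit.

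Here the numeric suffix was stripped from region names, and each region was kept once at its smallest distance. Adjusted p-values are over all tested regions, those at or above the authors' mean signal limits of 56.2, 101 and 41.7. Regions below a limit had an unadjusted p only and are called not tested. Coordinates are as the files give them, whose counting from 0 or 1 is not stated. Group levels were computed as 3 times the mean signal divided by the sum of the relative levels, an approximation.

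Members and gene lists were chosen with earlier results of these data known. The regions of 1 gene are not reported here, and that gene was taken out of the gene lists; its regions stay in the counts over all proximal regions. Named regions were, per comparison and direction, the 12 most extreme called ones with at least the median signal, 1 per gene, leaving out LOC, LINC, MIR and antisense-type names; all where at most 12 were called; up to 3 per gene list, smallest adjusted p first; the genes with at least 3 calls; HMGA1; and the 2 regions on either side of each limit. Gene names matched RefSeq (GRCh38.p14) by symbol or older name. Alternatives were other adjustment sets, centring on the median and in 20 signal bins, a threshold of 0.01, a signal of at least 100 and every gene name counted. The centring was tested on simulated data. Python 3.11.15 was used with pandas 2.3.3, numpy 2.4.6 and scipy 1.17.1.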

Additional observations from a re-analysis of the deposited data

Results flagged for a closer look

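Effects against mock differed between 2 h and 18 h for 30 of the 42 named regions called against mock, by the authors' own DESeq2 test of 18 h against 2 h (adjusted p under 0.05). The named regions were chosen on values that share libraries with that test, so their number is a description. The effect was lower at 18 h for 26. In the authors' deposited table the difference was below -1 on the log2 scale for TSEN15 at 5.23 kb (-1.48), FLG at 3.46 kb (-1.45), TNS3 at 9.34 kb (-1.40), CD1D at 6.22 kb (-1.22), PHLDB1 at 8.81 kb (-1.18), CCND1 at 6.55 kb (-1.15), AGRN at 4.49 kb (-1.13), THBS1 at 6.92 kb (-1.12), AADACL4 at 7.64 kb (-1.11), CDV3 at 4.1 kb (-1.06), THBS1 at 8.61 kb (-1.04), SLC2A9 at 8.98 kb (-1.04), TCP11L1 at 4.75 kb (-1.04), HSPG2 at 5.81 kb (-1.01) and SLC7A5 at 1.04 kb (-1.004). It was nearer to 0 in the authors' deposited table for COL13A1 at 5.18 kb (-0.97), THBS1 at 4.21 kb (-0.93) and THBS1 at 5.37 kb (-0.90). Smaller differences in the authors' deposited table were those of S100A10 at 5.47 kb (-0.70), ACTG1 at 5.19 kb (-0.66), DUSP5 at 9.89 kb (-0.65), MISP at 1.39 kb (-0.61), COL1A1 at 7.89 kb (-0.60), LIMS1 at 6.67 kb (-0.56), FXYD5 at 8.15 kb (-0.54) and MTRNR2L1 at 1.46 kb (-0.23). The effect was higher at 18 h for 4, which in the authors' deposited table were TRIL at 4.12 kb (0.45), SLC26A2 at 5.44 kb (0.53), AGR2 at 8.15 kb (0.61) and DDR1 at 9.18 kb (0.62).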

How the results depend on the processing

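No paired analysis was possible because the tables hold comparisons and no values per library; for the same reason leaving out each replicate and a replicate block were not run. No direction reversed under any alternative run, but none could be expected to. Only centring altered the fold changes, and its shifts were small beside the named values. At 2 h, the 71 proximal regions that were higher became 121 relative to the median region, 129 relative to bins of equal signal and 35 at a threshold of 0.01. The 40 that were lower became 20 when p-values were adjusted over every region, 18 relative to the median region, 18 relative to the bins and 15 at 0.01, and the 34 named calls became 22 at 0.01. At 18 h against mock, the 8 that were lower, all of them named, became 5 when p-values were adjusted over every region. Only 2 of the 8 named calls were made there. Adjusted over regions with a mean signal of at least 50, 11 were lower and 6 of the named calls were made. Both counts thus include regions outside the 8. The 8 became 0 relative to the median region, 1 relative to the bins and 2 at 0.01, with 0, 1 and 2 of the named calls. The cause of these changes in count was not tested. At 18 h against 2 h, the 48 that were higher became 29 over every region and 20 at 0.01, and the 376 that were lower became 230 at 0.01. Leaving out the regions with a RefSeq gene start or those of THBS1, both chosen after seeing the data, gave 69 and 67 higher at 2 h. The other counts stayed within 1.5 times. Mean signal limits what could be called: 7689 of 14448 proximal regions had a usable adjusted p at 18 h against mock.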
